A study of Mus musculus with 28 samples.

Results

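The 10 genes described here make up the core of the mammalian circadian clock and its best known transcriptional outputs: Arntl (which encodes BMAL1), Clock, Per1, Per2, Per3, Cry1, Cry2, Dbp, Nr1d1 and Nr1d2. They were chosen by name, with earlier results of these data known, and are 10 of 26581 genes in the deposited count tables. All 10 passed the filter on low counts in every comparison.

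RNA was sequenced from the dLGN (dorsal lateral geniculate nucleus), the relay of the thalamus between retina and visual cortex, in a series on Fn14, a cytokine receptor. The 7 groups were embryonic day 18 (E18) and postnatal days 4, 10, 16, 20, 27 and 32 (P4 to P32), with 4 libraries each and 28 libraries in all. Every animal was a wild-type C57BL/6J mouse under standard housing, both sexes were used, and no group carried an allele or an agent. Age was the only difference between groups that the labels name, and the balance of the sexes also differed, as given below. The dLGN was cut by hand from brain slices and total RNA was depleted of ribosomal RNA. No source used here gives the time of day at which tissue was taken.

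The labels describe 4 mice per age, each an independent sample. In 5 libraries (all 4 of E18 and P27 library 5) reads of both the female-specific Xist and the Y-linked Ddx3y were present, so n counts libraries below, and p-values measure the spread between libraries. Among the other libraries, Xist was the higher of the 2 in all of P4, P10 libraries 3 and 5 and P16 library 6. It was also the higher in P20 libraries 4, 5 and 6, P27 libraries 4 and 6 and P32 libraries 3 and 5. Ddx3y was the higher in the rest. The balance of the sexes thus differed between P4, P10 and P16, and its part in the values was not tested. Library totals ran from 8224851 to 40206549 reads, and the mitochondrial share of reads ran from 1.37% to 21.8%. P27 library 6 stood apart, with the highest mitochondrial share and the fewest genes detected, 16938. Neuron markers (8 genes) summed to between 3938 and 5318 CPM in the P32 libraries and between 2469 and 3934 CPM in the E18 libraries. Of markers of the suprachiasmatic nucleus, the master clock of the hypothalamus, Vip and Avp had medians of 0.245 and 0.228 CPM over the 28 libraries, and Rgs16 reached 238 CPM. CPM is the count as a share of a library's reads, set to a common total and scaled by TMM factors (trimmed mean of M values) over all 28 libraries.

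In the clock, the proteins of Clock and Arntl pair and activate genes through E-boxes, short DNA motifs. Among these genes are the Per and Cry genes, whose proteins enter the nucleus and repress that same pair, which closes a loop of about a day. The REV-ERB receptors of Nr1d1 and Nr1d2 repress Arntl through a second motif, the RRE, and the protein of Dbp activates genes through D-boxes, so the loops interlock. In the brain the suprachiasmatic nucleus sets the phase, and other regions, thalamus and glia included, hold clocks of their own.

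The motifs of these loops were looked for in the 250 bases before the annotated start of transcription, on both strands, in RefSeq promoter windows of GRCm38.p6. Of the 10 genes, 9 had at least 1 window (13 windows in all), and Per2 had none. The D-box TTANGTAA was present in Per3 alone among them, at 2 places, and in 2.06% of the 32851 windows of all genes. The E-box CACGTG was present in Per1 and Cry1 and in 6.02% of all windows. The related E-prime-box CACGTT was present in Cry1, Cry2 and Nr1d1 and in 3.85% of all windows. The RRE core AGGTCA was present in Clock, Per1 and Nr1d2 and in 14.0% of all windows, and the cyclic AMP element TGACGTCA was present in none of the 13 and in 1.55% of all windows. In these 13 windows no match of one motif overlapped a match of another, and a match is a description of the sequence, not a bound site. The 250 bases are shown for the 3 genes that carry a D-box or an E-box (of the 2 Per1 windows, the one that holds it) and for Nr1d2, which had the largest log2 fold change over the ages. They read 5′ to 3′ on the gene's strand, and the capitals mark the D-boxes in Per3, the E-box in Per1 and Cry1 and the RRE core in Nr1d2.
Per3, chr4:151044666-151044915, minus strand: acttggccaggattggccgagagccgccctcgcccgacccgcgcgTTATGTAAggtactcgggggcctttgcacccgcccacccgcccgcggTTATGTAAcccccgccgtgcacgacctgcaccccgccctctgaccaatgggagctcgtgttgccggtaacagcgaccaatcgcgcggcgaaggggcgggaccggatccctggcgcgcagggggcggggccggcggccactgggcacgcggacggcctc
Per1, chr11:69098699-69098948, plus strand: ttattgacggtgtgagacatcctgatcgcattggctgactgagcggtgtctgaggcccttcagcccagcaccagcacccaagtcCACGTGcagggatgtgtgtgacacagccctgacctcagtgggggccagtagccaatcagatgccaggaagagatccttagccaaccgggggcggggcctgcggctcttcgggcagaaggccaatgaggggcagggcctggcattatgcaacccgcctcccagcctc
Cry1, chr10:85185055-85185304, minus strand: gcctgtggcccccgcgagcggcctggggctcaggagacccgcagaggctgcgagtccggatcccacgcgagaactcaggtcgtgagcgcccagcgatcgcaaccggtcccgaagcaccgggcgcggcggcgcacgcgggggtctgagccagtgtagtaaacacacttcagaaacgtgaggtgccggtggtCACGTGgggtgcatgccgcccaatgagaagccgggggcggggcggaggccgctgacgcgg
Nr1d2, chr14:18239107-18239356, minus strand: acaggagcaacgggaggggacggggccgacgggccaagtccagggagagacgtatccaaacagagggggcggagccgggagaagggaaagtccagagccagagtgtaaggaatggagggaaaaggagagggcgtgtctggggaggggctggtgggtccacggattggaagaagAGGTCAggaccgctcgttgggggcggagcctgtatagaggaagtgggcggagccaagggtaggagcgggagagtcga
Nr1d2 rose in both steps up to P10, Per3 between P4 and P10 and Per1 in both steps from P4 to P16. Cry1, which holds the same E-box letters as Per1, was lower at P32 than at E18. A relation between the motifs and these courses was not tested.

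Across the 7 ages, 9 of the 10 genes differed (edgeR's quasi-likelihood F test, adjusted p at or under 0.00314), against 51.3% of all genes tested. The exception was Arntl (adjusted p = 0.874). Against E18, 8 genes were higher at P32 and Cry1 was lower, where 46.9% of all genes passed in either direction. The higher genes were Nr1d2, Dbp, Per3, Per1, Nr1d1, Per2, Cry2 and Clock, in order of their log2 fold change, and 24.1% of all genes passed as higher and 22.8% as lower. In 8 of the 10 genes the 4 P32 libraries did not overlap the 4 E18 libraries, which held for 44.6% of all genes. The median log2 fold change was 1.19 over the 10 genes and -0.02 over all genes tested. In bulk tissue, more RNA per cell and more cells that hold the RNA cannot be told apart.

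**Figure D1:**
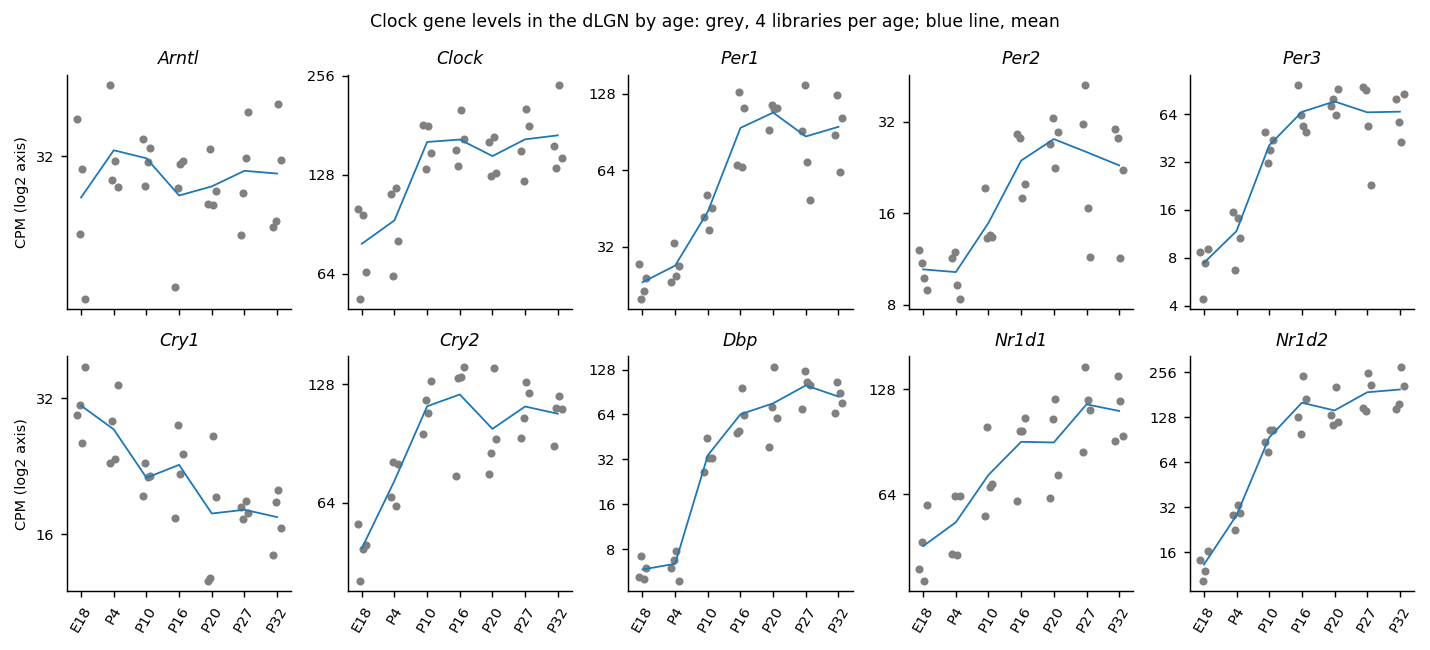
Level of each clock gene (CPM, log2 axis) by age in the dLGN, with each of the 4 libraries of an age as a grey point and the blue line through the age means. The P16 means of Dbp, Nr1d2, Per3 and Per1 lie above those of E18, P4 and P10, all P32 libraries of Cry1 lie below all its E18 libraries, and Arntl stays between 19.4 and 41.0 CPM.

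The 2 activators differed from each other. Arntl (chromosome 7, 113178471 to 113314126 on the plus strand, coordinates from the deposited tables) averaged 27.7, 32.7, 31.8, 27.9, 28.8, 30.4 and 30.1 CPM over the 7 ages from E18 to P32. Its libraries ran from 19.4 to 41.0 CPM, and no 2 neighbours in the order of its age means differed beyond their spread. Its log2 fold change for P32 against E18 was 0.09 (SE 0.24, edgeR adjusted p = 0.775). Clock (chromosome 5, 76209868 to 76304950, minus strand), the partner with which BMAL1 binds DNA, was lower at the first 2 ages than later. Clock averaged 78.9 CPM at E18 and 92.9 CPM at P4, and between 146 and 169 CPM at each later age. The P10 libraries had 182, 133, 180.1 and 149 CPM, against 112, 63.0, 117 and 80.6 CPM in the P4 libraries. All 4 P10 libraries lay above all 4 P4 libraries, and the log2 fold change was 0.78 (SE 0.20, edgeR adjusted p = 0.0186). That call was lost with total-count scaling (adjusted p = 0.0711), without P4 library 6 (0.0646) and without P10 library 3 (0.0547).

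The Period genes, whose proteins carry the repressor complex into the nucleus, were each higher at P32 than at E18. Between adjacent ages Per1 rose in 2 steps and Per3 in 1, and no step of Per2 passed. Per3 (chromosome 4, 150997494 to 151044681, minus strand) had 15.6, 6.71, 14.2 and 10.7 CPM in the P4 libraries, against 8.77, 4.44, 7.46 and 9.10 CPM in the E18 libraries. These ranges overlapped. At P10, Per3 had 49.2, 31.5, 37.9 and 44.2 CPM, all above every P4 library, and the log2 fold change for P10 against P4 was 1.77 (SE 0.25, edgeR adjusted p = 0.000715). From P16 to P32 its means lay between 65.6 and 76.7 CPM, and neighbours in that order overlapped. Over the whole span the log2 fold change of Per3 was 3.12 (SE 0.30, adjusted p = 4.72e-06), an 8.70-fold difference of P32 over E18.

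Per1 (chromosome 11, 69095136 to 69109965, plus strand), which answers light, stress hormones and neuronal activity as well as the clock, had its largest step later. Per1 had 23.2, 33.2, 24.5 and 26.9 CPM in the P4 libraries, 41.8, 51.4, 37.4 and 45.7 CPM in the P10 libraries and 67.0, 130.5, 65.8 and 113 CPM in the P16 libraries. Each of these ages lay wholly above the one before it, and at P16 libraries 4 and 6 were well above libraries 3 and 5. The log2 fold change was 1.09 for P16 against P10 (SE 0.24, edgeR adjusted p = 0.0108) and 0.70 for P10 against P4 (SE 0.17, adjusted p = 0.0123). The second of these missed the threshold when all 28 libraries were fitted together (adjusted p = 0.0673).

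Per2 (chromosome 1, 91415977 to 91459410, minus strand), without which mice lose a stable rhythm in constant darkness, was the lowest of the 10 per length and had the smallest log2 fold change of the 3 for P32 against E18. Its means were 10.4, 10.2, 14.9, 23.8, 28.04, 25.4 and 23.0 CPM from E18 to P32. The P10 libraries had 19.4, 13.2, 13.5 and 13.4 CPM, against 11.4, 11.9, 9.28 and 8.36 CPM in the P4 libraries, with no overlap. The log2 fold change of 0.54 (SE 0.21) did not pass (edgeR adjusted p = 0.0919), and with the replicate block it did (adjusted p = 0.0193). For P32 against E18 the log2 fold change was 1.11 (SE 0.29, adjusted p = 0.00722), with 1 P32 library, number 5, at 11.4 CPM inside the E18 range of 8.96 to 12.1 CPM.

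The Cryptochromes, the direct repressors of the CLOCK and BMAL1 pair, went opposite ways. Cry1 (chromosome 10, 85131700 to 85185054, minus strand) had 14.4, 18.9, 20.1 and 16.5 CPM in the P32 libraries, against 29.3, 31.0, 25.5 and 37.5 CPM in the E18 libraries. All P32 libraries lay below all E18 libraries, and the log2 fold change was -0.85 (SE 0.20, edgeR adjusted p = 0.0042). No single step between adjacent ages passed for Cry1, and the largest was -0.36 for P10 against P4 (SE 0.17, adjusted p = 0.157). Cry2 (chromosome 2, 92403646 to 92434069, minus strand) had 56.4, 40.5, 48.8 and 50.1 CPM in the E18 libraries, 66.3, 81.2, 62.9 and 80.4 CPM in the P4 libraries and 95.3, 116, 108 and 130.2 CPM in the P10 libraries. The 3 ages did not overlap. The log2 fold change was 0.62 for P10 against P4 (SE 0.15, edgeR adjusted p = 0.0124) and 0.56 for P4 against E18 (SE 0.16, adjusted p = 0.0614; with the replicate block 0.00612). The gene D930015M05Rik is listed on the opposite strand inside Cry2, with a mean of 6.31 CPM, and no source used here says whether strand was used in counting.

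The REV-ERB receptors, which close the second loop, were both higher at P32 than at E18. Nr1d2 (chromosome 14, 18204056 to 18239106, minus strand) had 28.5, 22.5, 33.1 and 29.2 CPM in the P4 libraries, against 14.3, 10.4, 12.1 and 16.3 CPM in the E18 libraries. It was the one clock gene called in this first step (log2 fold change 1.08, SE 0.19, edgeR adjusted p = 0.00645). The P10 libraries had 88.0, 75.4, 106 and 106 CPM, with a log2 fold change over P4 of 1.72 (SE 0.17, adjusted p = 7.9e-05). No P10 library overlapped P4, and no P4 library overlapped E18. For P32 against E18 the log2 fold change was 3.86 (SE 0.26, adjusted p = 2.91e-07), the largest of the 10. Nr1d1 (chromosome 11, 98767935 to 98775242, minus strand) averaged 45.4, 53.1, 72.7, 90.5, 90.1, 116 and 111 CPM from E18 to P32. None of its single steps passed, P10 against P4 included (log2 fold change 0.44, SE 0.21, edgeR adjusted p = 0.163; with the replicate block 0.0129). Over the span it did, with a log2 fold change of 1.26 (SE 0.21, adjusted p = 0.000425) and no overlap between P32, at 91.1 to 140.3 CPM, and E18, at 36.1 to 59.8 CPM.

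Dbp (chromosome 7, 45705095 to 45710203, plus strand), the D-box activator that E-boxes drive directly, had the largest log2 fold change of any single step. Dbp had 5.17, 7.18, 5.004 and 6.01 CPM in the E18 libraries, 6.02, 6.80, 7.77 and 4.91 CPM in the P4 libraries and 26.5, 44.7, 32.4 and 32.7 CPM in the P10 libraries. E18 and P4 overlapped, and every P10 library lay above both. The log2 fold change for P10 against P4 was 2.41 (SE 0.22, edgeR adjusted p = 5.09e-05), a 5.32-fold difference. At P16, Dbp had 47.8, 49.9, 95.8 and 63.4 CPM, and the log2 fold change over P10 was 0.90 (SE 0.24, adjusted p = 0.027). This second step lost its call without P10 library 3, 5 or 6 or without P16 library 5, where the adjusted p was between 0.0693 and 0.0848. Sphk2, a sphingosine kinase gene, overlaps the end of Dbp by 741 bases on the opposite strand and had a log2 fold change of 0.36 for P10 against P4 (adjusted p = 0.228) and 0.71 for P16 against P10 (adjusted p = 0.0316).

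Between genes, levels were compared per kilobase of the deposited gene length, as the mean of 28 libraries. Nr1d1 was highest at 31.5 CPM per kb, followed by Nr1d2 at 25.3, Cry2 at 22.01 and Dbp at 21.1 CPM per kb. Clock had 13.5, Per1 9.96 and Arntl 9.16 CPM per kb. Per3 had 7.58, Cry1 7.32 and Per2 3.22 CPM per kb. The order differed with age. At E18 the 2 highest were Nr1d1, at 17.3 CPM per kb, and Cry2, at 11.2 CPM per kb, with Cry1 next at 10.2 CPM per kb. Dbp, at 2.32 CPM per kb, was then above Per2 and Per3 alone. At P32 Nr1d2 at 42.3 and Nr1d1 at 42.2 CPM per kb came first, Dbp had 33.5 CPM per kb, and Cry1 had 5.75 CPM per kb.

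Step by step, clock genes were called between E18 and P16 and in no later step. For P4 against E18, 1 gene passed (Nr1d2, higher), against 7.87% of all genes in either direction and 4.75% as higher. With the replicate block 3 did (Nr1d2, Cry2 and Per3), against 5528 of 18797 genes with that block. In 2 genes, Nr1d2 and Cry2, the ages did not overlap, against 15.2% of all genes. For P10 against P4, 6 of 10 passed, all higher (Clock, Per1, Per3, Cry2, Dbp and Nr1d2), against 18.4% of all genes in either direction, 10.3% as higher and 8.16% as lower. In 7 genes, these and Per2, the ages did not overlap, against 23.1% of all genes. The median log2 fold change was 0.66 over the 10 genes and -0.01 over all genes tested. With the replicate block Per2 and Nr1d1 passed as well, against 6408 of 17717 genes with that block.

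For P16 against P10, 2 of 10 passed, both higher (Per1 and Dbp), against 11.9% of all genes in either direction, 6.2% as higher and 5.65% as lower. In 3 genes, these and Per3, the ages did not overlap, against 17.4% of all genes. With CPM scaled within the 8 libraries of this step Per3 did overlap. Its lowest P16 library then had 47.9 CPM and its highest P10 library 49.03 CPM. Nr1d2 (log2 fold change 0.75, SE 0.24, edgeR adjusted p = 0.0625), Per3 (0.68, SE 0.23, adjusted p = 0.0765) and Per2 (0.67, SE 0.23, adjusted p = 0.081) missed the threshold, and all 3 passed with DESeq2's Wald test (adjusted p = 0.0253, 0.0419 and 0.0428). DESeq2's Wald test called 2884 of 17474 genes here. In the authors' deposited table Nr1d2 had an adjusted p of 0.0439 for this step. The median log2 fold change was 0.49 over the 10 genes and 0.01 over all genes tested.

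From P16 on, no clock gene was called by edgeR for P20 against P16, P27 against P20 or P32 against P27, and 0 of 10 reached an unadjusted p under 0.05 in any of the 3. The background was 0% of genes called in each, with 485, 476 and 73 genes at an unadjusted p under 0.05, and DESeq2's Wald test called 7 genes for P27 against P20, none of them a clock gene. No clock gene's ages were free of overlap in these steps, against 1.49%, 1.9% and 0.745% of all genes. Log2 fold changes of the 10 genes lay between -0.36 and 0.39 in these 3 steps. Their SE lay between 0.15 and 0.42, and a miss does not show that levels were equal.

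**Figure D2:**
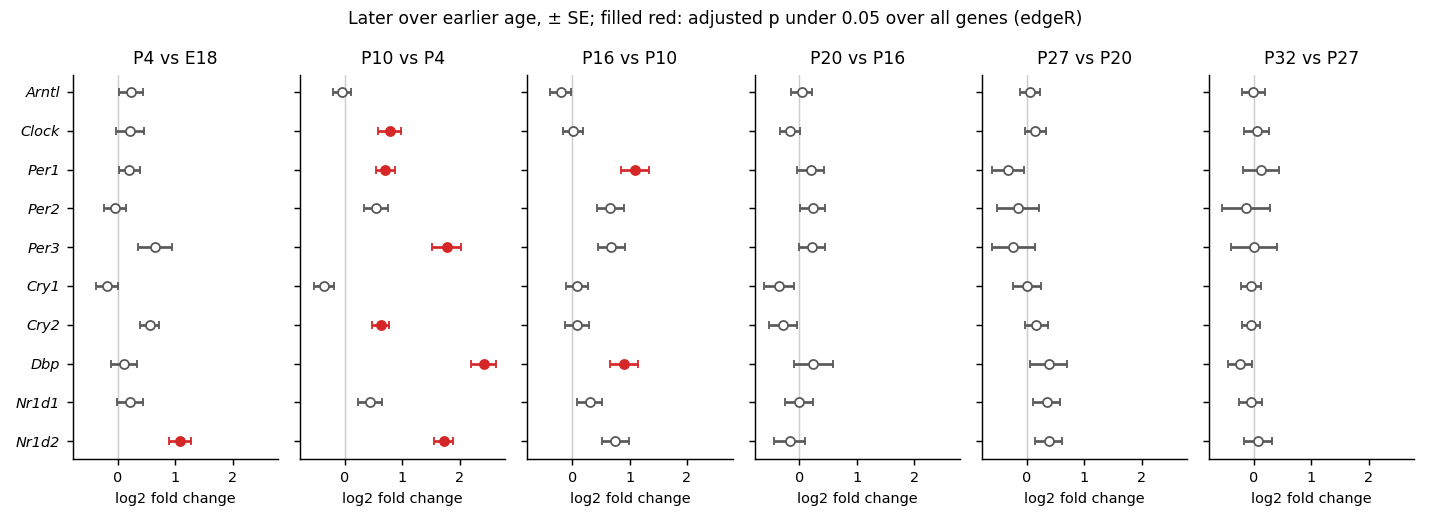
Log2 fold change of each clock gene for the 6 steps between adjacent ages, later over earlier age, with bars of 1 SE (8 libraries per step). Filled red points passed an adjusted p of 0.05 over all genes in edgeR: Nr1d2 in the first step, 6 genes for P10 against P4, Per1 and Dbp for P16 against P10, and none later.

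Other transcription factors of the clock were followed as a list of 11 genes, of which 10 were tested for P10 against P4. There 5 rose and 1 fell, against 10.3% and 8.16% of all genes, with a list median log2 fold change of 0.89 against -0.01 over all genes. The risers included Hlf and Tef, which with Dbp form the family that activates D-boxes. Hlf averaged 97.4 ± 6.66 CPM at P10 and 37.3 ± 10.5 CPM at P4 (SD, n = 4 each), a log2 fold change of 1.37 (edgeR adjusted p = 0.000698). Tef averaged 127 ± 16.2 CPM at P10 and 57.6 ± 8.93 CPM at P4, a log2 fold change of 1.13 (adjusted p = 0.000545). The 1 that fell was Nfil3, the repressor that competes at D-boxes, with 11.3 ± 2.91 CPM at P10 and 20.9 ± 5.24 CPM at P4 (log2 fold change -0.89, adjusted p = 0.0231). Rora, the activator that competes with the REV-ERB receptors at the RRE, rose by 1.36 on the log2 scale (adjusted p = 0.00061), to 763 ± 77.6 CPM at P10 against 295 ± 76.1 CPM at P4. Bhlhe40 (log2 fold change 1.02) and Ciart (1.20), both repressors of the E-box pair, were the other 2 that rose.

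For P16 against P10, 4 of 10 tested genes of the list rose and none fell: Hlf, Npas2, Bhlhe40 and Tef. Of all genes 6.2% rose and 5.65% fell in that step. Npas2, which can stand in for Clock in the forebrain, averaged 21.9 ± 7.12 CPM at P16 and 8.18 ± 2.06 CPM at P10 (log2 fold change 1.42, edgeR adjusted p = 0.00463). For P32 against E18, 8 of 11 rose and Nfil3 alone fell (log2 fold change -1.63, adjusted p = 0.000177), with a list median of 2.46. Of all genes 24.1% rose and 22.8% fell over that span. Kinases, ligases and other partners of the clock proteins (14 genes) were called at shares near those of all genes. For P10 against P4, 2 of 14 rose and 2 fell, against 10.3% and 8.16% of all genes, and for P32 against E18, 4 of 14 rose and 4 fell, against 24.1% and 22.8%. Usp2, a deubiquitinase that is itself rhythmic, rose in both (log2 fold change 1.43, adjusted p = 0.000325, and 2.95, adjusted p = 3.2e-07). Csnk1e, which encodes the kinase that marks PER proteins for decay, fell to 92.4 ± 10.8 CPM at P10, against 142 ± 9.94 CPM at P4 (log2 fold change -0.63, adjusted p = 0.00673).

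Other genes and cell types moved in the same steps. Of all genes, 10.3% passed as higher and 8.16% as lower for P10 against P4, and 6.2% and 5.65% for P16 against P10. Activity-regulated immediate early genes rose in 5 of 11 tested genes for P10 against P4 and 5 of 11 for P16 against P10, with none lower in either. Glucocorticoid-responsive genes (10, Per1 among them) had 1 higher and 2 lower for P10 against P4, where Fkbp5 had a log2 fold change of -1.14, and 3 higher for P16 against P10. For P10 against P4, 7 of 8 astrocyte markers rose and none fell, and their sum was 3112 to 4228 CPM in the P10 libraries and 1053 to 1558 CPM in the P4 libraries. Of 7 tested markers of myelinating oligodendrocytes 6 rose, and their sum was 2099 to 2627 CPM at P10 and 132 to 178 CPM at P4. Opalin, of that list, was at 0 in 8 of the 28 libraries. Neuron markers had 3 higher and 1 lower of 8, with sums of 3166 to 3754 CPM at P10 and 3022 to 4115 CPM at P4. Microglia markers had 3 of 6 higher, endothelial markers 2 of 6 higher and red blood cell markers 1 of 5 higher. Choroid plexus markers had 1 of 4 tested lower, and suprachiasmatic markers 1 of 2 tested higher, which was Rgs16. For P16 against P10, 8 of 8 myelinating markers and 3 of 8 astrocyte markers rose. The part of these cell types in the clock gene values was not tested.

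Libraries of one age differed by about as much for clock genes as for other genes. The pooled within-age SD of log2 CPM had a median of 0.36 over the 10 genes, against 0.33 over the 12621 genes that averaged 5 CPM or more. Per3, at 0.53, was the most variable, and 13.9% of those genes had a larger SD. Per2 had 0.46 and Dbp 0.41, and Arntl at 0.26 was the steadiest. The genes other than the 3 Period genes spread most at E18, P16 or P20. For the Period genes P27 held the widest spread, with an SD of 0.95 for Per3 and 0.85 for Per2. There, library 4 had 90.7 CPM of Per3, 42.2 CPM of Per2 and 139 CPM of Per1. Library 6 of the same age had 22.9 CPM of Per3, 11.5 CPM of Per2 and 48.9 CPM of Per1. Within P27 the 3 Period genes were thus each lowest in library 6, which also had the highest mitochondrial share of reads, 21.8%. Over the 28 libraries, r of the within-age deviations with the log2 mitochondrial share was -0.04 for Per1, 0.24 for Per2 and -0.15 for Per3.

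Whether the 10 genes vary together from library to library was asked after each age mean was taken away, so that the shared course with age does not enter. Over 28 libraries and 45 pairs, 10 pairs passed (permutation of libraries within ages, 100000 draws, two-sided, Benjamini-Hochberg over the 45 pairs), 7 positive and 3 negative. By Spearman's rho 8 pairs passed. The weakest called pair had an absolute r of 0.473. Of the 45 pairs, 15 (33.3%) had an absolute r at or above that value, 5 of them not called, against 25.1% of all pairs of a clock gene and any other gene. The difference between these shares was not tested. All libraries share dissection, depth and composition differences, and r over genes of the same libraries carries these. The permutation treats the libraries of an age as exchangeable, although deviations of same-numbered columns went together between E18, P4 and P10. From P10 on, columns 3 to 5 still went together between adjacent ages, with r from 0.35 to 0.71, and column 6 did not. With the replicate block 4 of the 10 pairs still passed and 6 did not, and 7 passed in all.

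Of the called positive pairs, 4 joined genes of neighbouring roles. Other pairs as close in role did not pass. Among these were Nr1d1 with Nr1d2 (r = 0.12, permutation adjusted p = 0.679), Per1 with Per3 (r = 0.35, 0.355) and Per1 with Per2 (r = 0.66, 0.0568). Neither Dbp nor Nr1d1 passed with any Period gene, which E-boxes also drive. There r ran from -0.42 (Per3 with Nr1d1) to 0.40 (Per1 with Nr1d1), with permutation adjusted p of 0.104 or more. Per2 with Nr1d2 and Per2 with Cry2, whose roles also adjoin, were called as negative pairs. Cry1 and Cry2 had r = 0.73 (rho = 0.62, permutation adjusted p = 0.00555), and their deviations had the same sign in 19 of 28 libraries. Among all 20109 genes ranked by r, Cry2 was number 31 for Cry1 and Cry1 was number 474 for Cry2. In the same ranking Clock was number 303 for Arntl and Arntl number 1540 for Clock. Nr1d1 was number 401 for Dbp and Dbp number 1092 for Nr1d1. Per3 was number 1055 for Per2 and Per2 number 1728 for Per3. Dbp and Nr1d1, both direct E-box targets, had r = 0.69 (rho = 0.71, permutation adjusted p = 0.00787), with the same sign in 24 of 28 libraries. Arntl and Clock had r = 0.60 (rho = 0.58, permutation adjusted p = 0.0408; 0.0618 by rho). Per2 and Per3 had r = 0.66 (rho = 0.58, permutation adjusted p = 0.0373; 0.0663 by rho). Without P27 library 6 the r of Per2 and Per3 was 0.50 and no longer passed (permutation adjusted p = 0.0722). With the replicate block the r of Arntl and Clock was 0.85, the r of Per2 and Per3 was 0.83 and the r of Cry1 and Cry2 was 0.62, and all 3 passed. With the block the r of Dbp and Nr1d1 was 0.56 and did not pass (permutation adjusted p = 0.0849).

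**Figure D3:**
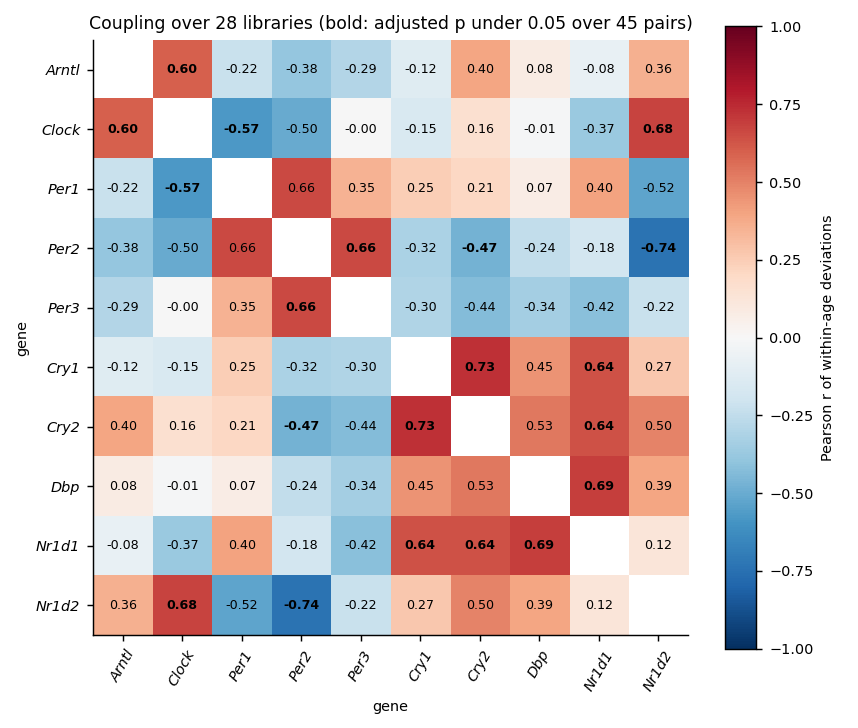
Pearson r of within-age deviations in log2 CPM for the 45 pairs of clock genes over 28 libraries, with the same value on both sides of the diagonal. Bold values passed a permutation adjusted p of 0.05: positive from 0.60 to 0.73 and negative from -0.74 to -0.47. Per1 with Per2, at 0.66, is the highest value that did not pass.

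The remaining positive pairs were Clock with Nr1d2 (r = 0.68, permutation adjusted p = 0.00337), Cry1 with Nr1d1 (r = 0.64, 0.0222) and Cry2 with Nr1d1 (r = 0.64, 0.0208). The negative pairs were Per2 with Nr1d2 (r = -0.74, rho = -0.81, permutation adjusted p = 0.00337), Clock with Per1 (r = -0.57, 0.0208) and Per2 with Cry2 (r = -0.47, 0.0373). With total-count scaling none of the 3 negative pairs passed, at r = -0.51, -0.31 and -0.26. With the replicate block the r of Per2 and Nr1d2 was -0.46 and passed (permutation adjusted p = 0.049), while the r of Clock and Per1 was -0.14 and the r of Per2 and Cry2 was -0.19, and neither passed. With the block the r of Clock and Nr1d2 was 0.36, the r of Cry1 and Nr1d1 was 0.59 and the r of Cry2 and Nr1d1 was 0.62, and none of these passed. All 10 pairs kept their sign and an absolute r above 0.473 when the 2 libraries farthest from the median on the x axis were left out. The 15 pairs among the E-box and D-box driven genes (Per1, Per2, Per3, Dbp, Nr1d1 and Nr1d2) had a median r of 0.07, from -0.74 to 0.69. Arntl had a median r of -0.15 with these 6 genes. R with the log2 mitochondrial share of reads ran from -0.56 for Nr1d2 to 0.24 for Per2, and with that share regressed out 16 pairs passed.

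**Figure D4:**
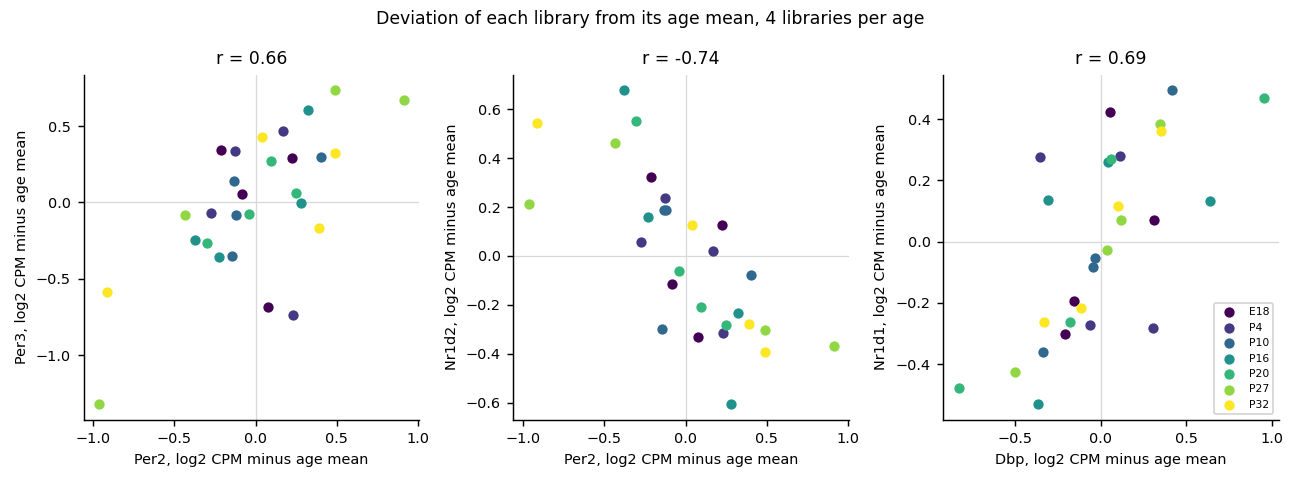
Deviation of each library from its age mean (log2 CPM) for 3 called pairs, with colour for age. Per3 and Per2 (r = 0.66) had deviations of the same sign in 20 of 28 libraries, Nr1d2 and Per2 (r = -0.74) in 6, and Nr1d1 and Dbp (r = 0.69) in 24.

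Within the 16 libraries of P16 to P32, a subset chosen after seeing the data, 14 of 45 pairs passed. There, 23 of the 45 (51.1%) reached the absolute r of the weakest called pair, 0.518, against 33.6% of pairs of a clock gene and any gene. Within the 12 libraries of E18, P4 and P10, 2 of 45 passed, and 5 of the 45 (11.1%) reached the absolute r of the weaker of them, 0.761, against 7.46% of pairs of a clock gene and any gene. Per2 and Per3 had r = 0.85 in the later subset and -0.02 in the earlier one. Clock and Per2 had r = -0.85 in the later subset and 0.14 in the earlier one. Arntl and Per2 had -0.73 in the later subset and 0.53 in the earlier one. In the earlier subset the called pairs were Cry1 with Nr1d1 (r = 0.87) and Arntl with Nr1d1 (r = -0.76). The later subset had r = 0.54 for Cry1 with Nr1d1 and 0.43, of the other sign, for Arntl with Nr1d1. Neither these differences from the background nor the difference between the subsets was tested. Columns 3 to 5 went together between P16, P20, P27 and P32 too, which the permutation within ages does not take up.

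For each clock gene, the 3 genes whose within-age deviations were most like its own were taken from 11602 named genes that averaged 5 CPM or more. None of these 30 places went to a clock gene. Clock was most like Tmem106b (r = 0.97), Aff4 and Braf (both 0.95), and Nr1d2 was most like Ipo7 (0.95), Usp46 (0.94) and Rmnd5a (0.94). Per2 was most like Tbc1d2b (0.92), Per3 like Man1c1 (0.92), Per1 like Rasgrp2 (0.90) and Cry2 like Pde1b (0.92). Nr1d1 was most like Ccdc85b (0.91), Arntl like Gria4 (0.88) and Cry1 like Zfp628 (0.84). Dbp was most like Tlcd1 (r = 0.85), followed by Sphk2 (0.83) and Car11 (0.82), which are the 2 genes that lie beside it on chromosome 7. Car11 ends 424 bases before Dbp on the same strand and had a log2 fold change of -0.23 for P10 against P4 (edgeR adjusted p = 0.401), where Dbp had 2.41.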

How the data were processed

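RNA-seq read counts per gene and library, as whole numbers, were deposited by the authors in 12 tables, an up and a down table for each of 6 comparisons of adjacent ages, and were joined by gene ID (26581 genes). The tables also hold the authors' fold change, a ratio with the later age on top, and their adjusted p-value, quoted only in sentences that name the authors' deposited table, and the gene length in bases, per the file headers. Another 96 columns, of read density per sample, were left unused. Per the submitters' processing notes, the tools were BWA and edgeR 3.14.0 and the build was GRCm38 (mm10). How reads were counted, on which annotation and whether by strand is not stated in the sources used here. Overlapping and antisense genes may therefore share reads. Genes that a table does not list held at most 3 reads and were set to 0.

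A library is named by its age and its column number (3 to 6), since nothing ties the columns to the replicate numbers of the labels. No library repeated another of its age within sampling noise (chi-square per degree of freedom of at least 25.6). Each pair of ages was fitted by edgeR's quasi-likelihood F test (version 4.0.16, R 4.3.3) over the 8 libraries, after filterByExpr and TMM scaling, two-sided, with Benjamini-Hochberg adjustment over all genes tested and calls under 0.05, and all 7 ages in 1 fit of 28 libraries. No fit held a term for sex. Log2 fold changes have the later age on top. Whether ages overlap was read from CPM scaled over all 28 libraries. Coupling used log2 CPM with a prior count of 1, minus the age mean. Deviations of same-numbered columns correlated over 12621 genes by 0.54 to 0.83 in P4 and E18 and by 0.31 to 0.73 in P10 and P4. From P10 on, between adjacent ages, numbers 3 to 5 correlated by 0.35 to 0.71 and number 6 by -0.30 to -0.05. Among adjacent ages the numbers were therefore read as pairing the libraries in P4 against E18 and P10 against P4 only. The main fits held no block, so their SE and p-values do not take this pairing up. The replicate block was an alternative, run for every comparison. This pairing is a property seen in the data and not stated in the labels, and a fit with the replicate block stands beside results whose call it changes. For coupling the block was applied to all 28 libraries. Alternatives were DESeq2 size factors, total-count scaling, no filter, DESeq2 1.42.0, limma-voom (limma 3.58.1), 1 fit of 28 libraries, the block and each library left out. The fits were tested on simulated data.

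The 10 genes and the 12 gene lists were chosen with earlier results of these data known. Text names all 10 genes, for each the 3 genes of most similar deviations, and up to 3 called genes of each list by size. Bhlhe40, Ciart and Nfil3 for P10 against P4, Tef for P16 against P10, and the genes beside or across a member were named after their values were seen. Promoter sequences are RefSeq's, build GRCm38.p6.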

Additional observations from a re-analysis of the deposited data

Results flagged for a closer look

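In 3 of 70 groups of 4 libraries (10 genes at 7 ages), the highest or lowest library stood far from the other 3, by Dixon's test of the gap over the range. Chance gives about 1 in 20 groups. All 3 were library 3 of their age. Per1 at P20 was 92.2 CPM in library 3, against 112 to 116 CPM in the other 3 libraries. Per2 at P10 was 19.4 CPM in library 3, against 13.2 to 13.5 CPM in the others. Cry2 at P16 was 74.9 CPM in library 3, against 132 to 141 CPM in the others. The mitochondrial share of reads in these libraries was 19.7% at P20, 14.7% at P10 and 13.0% at P16, and its part in these values was not tested.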

How the results depend on the processing

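Of the 10 genes, calls changed as follows. For P4 against E18, 1 gene passed, 2 with DESeq2's Wald test and 3 with the replicate block. For P16 against P10, 2 passed and 5 did with DESeq2's Wald test and with the replicate block. In that step column number 6 did not pair the libraries (r = -0.05), while numbers 3 to 5 had r from 0.35 to 0.50. With 1 library left out, the counts were 1 to 1, 5 to 6 and 1 to 3 in the first 3 steps, 0 to 0 in the later 3, 9 to 9 for P32 against E18, 9 to 9 over 7 ages and 6 to 15 for coupled pairs, the lowest without P16 library 3 or P32 library 5 and the highest without E18 library 6. Coupled pairs numbered 10, and 16 with the mitochondrial share regressed out, 6 without age P4, 4 without P16, 5 without P20, 5 without P32 and 2 in E18, P4 and P10 alone, where r of Per2 and Per3 was -0.017 and did not pass. The cause was not tested. The replicate block left 7 coupled pairs.

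Over all genes, 1479 were called for P4 against E18 (5528 with the replicate block, 2289 with DESeq2, 774 without E18 library 5, 898 without E18 library 6 and 896 without P4 library 6). For P10 against P4, 3267 were called (6408 with the block, 2082 without P10 library 6), and for P16 against P10, 2071 (3399 with the block, 1274 without P10 library 6). Total-count scaling moved the median of all genes by -0.31 (log2) for P32 against E18, with 3247 higher and 6095 lower, against 4477 higher and 4250 lower with TMM. It gave 613 higher and 686 lower for P4 against E18 (893 and 586 with TMM), 1357 and 1695 for P10 against P4 (1821 and 1446), and 798 and 1238 for P16 against P10 (1084 and 987). The 28-library fit gave 916 higher and 354 lower for P4 against E18. For Cry1 and the 8 genes higher at P32 than at E18, direction and call held in all 15 alternatives of that comparison. No called fold change of a clock gene changed sign under the alternatives listed.

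Counts of 70 to 9520 reads per gene and library limit Per3, Dbp and Per2 at the youngest ages most. With 4 libraries per age and no time of day in the sources used here, phase cannot be told apart from age or library.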
